A study of Mus musculus with 8 samples.

Results

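Desmosomes are junctions that rivet neighbouring epithelial cells together and anchor the keratin filaments of one cell to those of the next. The 10 genes described here were chosen by name as parts of that junction or as close relatives that link it to the cornified envelope: Dsg2 and Dsc2, Jup, Pkp1, Pkp2 and Pkp3, Dsp, Ppl and Evpl, and Perp. They are 10 of the 22026 genes named in the files, and each was found. They were measured by bulk RNA sequencing in 8 libraries of 4T1 and TS/A cells, which are breast cancer lines of the mouse with a BALB/c background, with 2 libraries in each of 4 groups. The groups were 4T1 cells carrying a virus vector that expresses Gpr56 (the adhesion receptor gene now called Adgrg1), 4T1 cells carrying the empty vector, and the same pair in TS/A. All cells were grown in RPMI with 10% FCS, and the design text gives type III collagen and 72 h of culture. The titles call the same groups Emp_Control and Emp_ColIII, whereas the characteristics call them empty and Gpr56 vector. The groups follow the characteristics, so by the labels a difference in vector and a difference in collagen culture cannot be told apart. No label says that the libraries of 1 group are separate cultures, and p-values then measure only the spread between these libraries.

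In a desmosome, the cadherins desmoglein and desmocollin reach across the gap between cells and bind plakoglobin and the plakophilins inside the cell, and these recruit desmoplakin, which holds the keratin filaments. Simple epithelia use desmoglein 2 and desmocollin 2, whereas the other desmogleins and desmocollins are best known from skin and other stratified epithelia. Periplakin and envoplakin are relatives of desmoplakin that form the first scaffold of the cornified envelope, the protein shell of a dying skin cell. Perp is a 4-pass membrane protein of desmosomes and a target of p53 and p63.

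Depth ran from 10510569 to 25959142 reads per library. The targeted gene followed the labels in 4T1, with 90.5 and 100.1 CPM (reads scaled to library size by TMM) for Adgrg1 in the Gpr56 libraries against 2.53 and 2.77 CPM in the empty-vector libraries. It did not in TS/A, where the libraries labelled Gpr56 had 22.6 and 13.3 CPM and the libraries labelled empty had 34.8 and 16.3 CPM. Every TS/A comparison of vectors therefore compares labels only. The 2 TS/A empty libraries also stood apart from each other, with a chi-square per degree of freedom of 118 between them against 17.4 between the TS/A Gpr56 libraries, 5.39 in 4T1 Gpr56 and 3.58 in 4T1 empty. The epithelial label was checked on 8 markers. They summed to 2241 and 2216 CPM in 4T1 Gpr56, 1634 and 1632 CPM in 4T1 empty, 203 and 260 CPM in TS/A Gpr56 and 180 and 212 CPM in TS/A empty. In TS/A nearly all of that sum was Krt18 and Krt19, while Cdh1 (E-cadherin) had 5 and 1 reads in the Gpr56 libraries and 4 and 0 reads in the empty ones.

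In 4T1 the desmosome genes were higher with the Gpr56 vector. Of the 10 genes, 7 rose and none fell: periplakin and plakoglobin were 2.11 and 1.99 times as high, plakophilin 3, Perp, desmoplakin and desmoglein 2 between 1.5 and 1.67 times, and desmocollin 2 1.38 times. Plakophilins 1 and 2 and envoplakin did not pass the test. Among all 11361 genes tested in 4T1, 11.5% were called higher and 22.8% called in either direction. The 2 Gpr56 libraries lay above both empty-vector libraries for 10 of the 10 genes, which was so for 30.5% of all genes. The median log2 fold change of the 10 was 0.59, against -0.00 over all genes tested. The test was edgeR's quasi-likelihood test on the 4 libraries of 4T1, with p-values adjusted by Benjamini-Hochberg over all genes. With all 8 libraries in 1 fit, which takes in the wider spread of TS/A, 27 genes and none of the 10 passed, and the adjusted p of the 7 ran from 0.0864 to 0.516 at fold changes that kept their direction. The log2 fold changes of the 10 stayed above 0 under every alternative run.

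**Figure D1:**
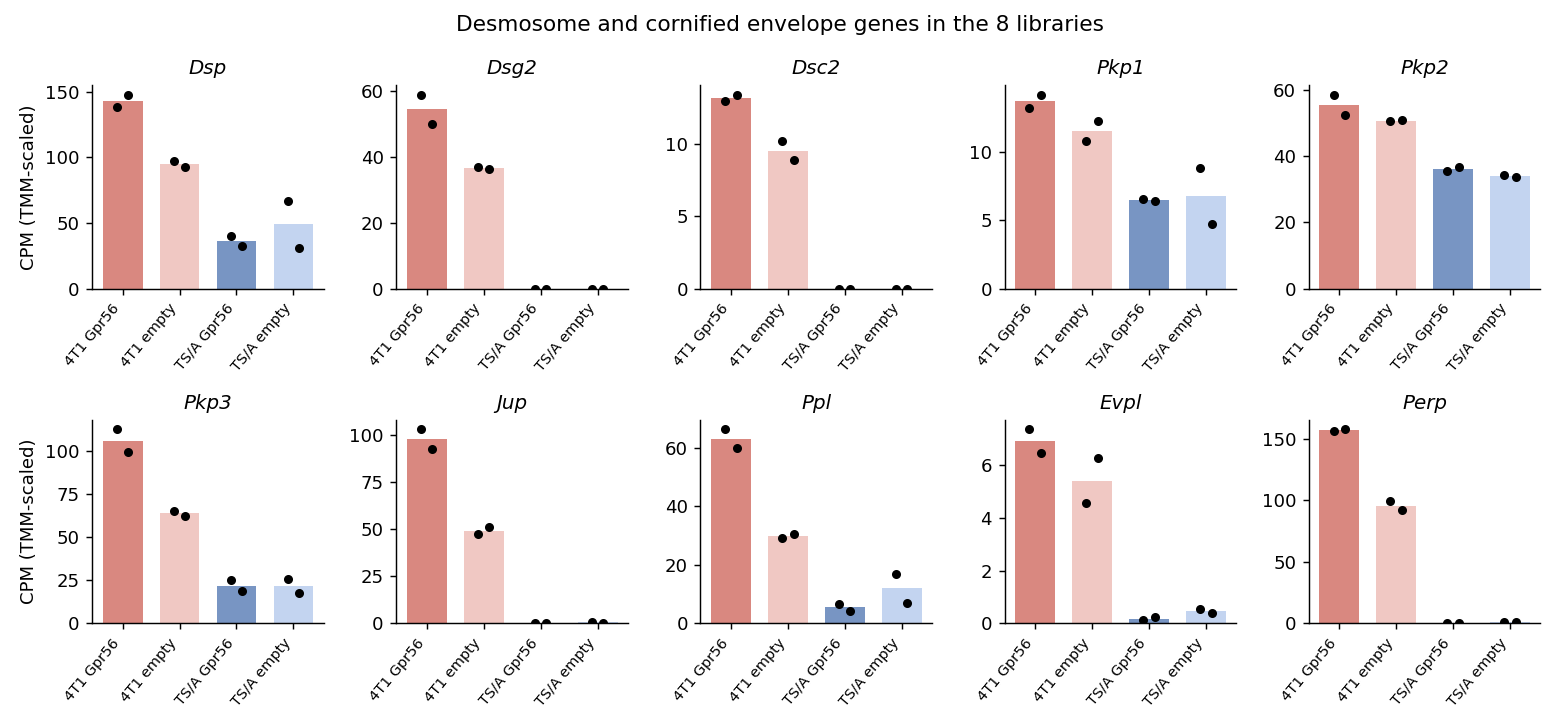
TMM-scaled CPM of each of the 10 genes (vertical axes start at 0 and differ between genes) in the 4 groups; points are the 2 libraries of a group and bars their mean. The 4T1 Gpr56 points lie above the 4T1 empty points in each panel, and Dsg2, Dsc2, Jup, Evpl and Perp are close to 0 in the TS/A libraries.

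By role, the cadherins span the gap between cells. Dsg2, desmoglein 2, had 59.0 and 50.1 CPM in the 4T1 Gpr56 libraries against 37.0 and 36.5 CPM in the 4T1 empty libraries. Its log2 fold change was 0.58 (SE 0.08, adjusted p = 0.00018 by edgeR). Both Gpr56 libraries were higher, by more than the libraries of either group differed. Dsc2, desmocollin 2, had 13.0 and 13.4 CPM with Gpr56 and 10.2 and 8.88 CPM with the empty vector, a log2 fold change of 0.47 (SE 0.14, adjusted p = 0.0295 by edgeR). The groups did not overlap, but this call was lost in 5 of 13 alternatives, and it rests on 143 to 277 reads in a library. Dsg3, a desmoglein of stratified epithelia, had 8 and 7 reads in the Gpr56 libraries and 0 and 0 in the empty ones, too few to be tested. It was chosen after its values were seen.

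Plakoglobin and the plakophilins are armadillo proteins that sit on the cadherin tails, and plakoglobin is also shared with adherens junctions. Jup, which encodes plakoglobin, had 103 and 92.4 CPM in the 4T1 Gpr56 libraries and 47.3 and 51.0 CPM in the 4T1 empty libraries. The change was 1.0 on the log2 scale (SE 0.07, adjusted p = 2.65e-07 by edgeR). No other armadillo gene of the set moved as far. Pkp3, the plakophilin of most epithelia, had 113 and 99.6 CPM with Gpr56 and 65.5 and 62.5 CPM with the empty vector, a log2 change of 0.74 (SE 0.07, adjusted p = 3.64e-06 by edgeR). Pkp2, known for its part in the desmosomes of heart and simple epithelia, had 58.5 and 52.3 CPM with Gpr56 and 50.6 and 50.8 CPM with the empty vector. Its log2 fold change of 0.14 (SE 0.07) had an adjusted p of 0.193. Pkp1, the plakophilin of stratified epithelia, had 13.2 and 14.2 CPM with Gpr56 and 10.7 and 12.2 CPM with the empty vector, a log2 change of 0.24 (SE 0.14, adjusted p = 0.23 by edgeR).

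The plakophilins thus differed among themselves in 4T1. Per transcript length, in the authors' RPKM (reads scaled to transcript length and library size), Pkp3 made up 65.7% and 64.8% of the summed plakophilin level in the Gpr56 libraries against 54.7% and 55.3% in the empty ones. Pkp2 made up 30% and 30.1% against 40% and 38.7%. These shares are descriptions and were not tested.

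The plakins tie the plaque to filaments. Dsp, desmoplakin, had 138 and 148 CPM in the 4T1 Gpr56 libraries and 96.9 and 92.8 CPM in the empty ones, a log2 fold change of 0.59 (SE 0.06, adjusted p = 9.43e-06 by edgeR). Ppl, periplakin, had 66.3 and 59.9 CPM with Gpr56 and 29.3 and 30.7 CPM with the empty vector, a log2 fold change of 1.08 (SE 0.08, adjusted p = 3.01e-07 by edgeR) and the highest of the 10. Evpl, envoplakin, which pairs with periplakin, was low, with 7.35 and 6.47 CPM with Gpr56 and 4.56 and 6.25 CPM with the empty vector. Its log2 fold change was 0.36 (SE 0.21, adjusted p = 0.231 by edgeR), and the gap between the groups was smaller than that between the empty libraries. Among the plakins, periplakin held 40.1% and 36.6% of the summed RPKM with Gpr56 and 29.9% and 31.3% with the empty vector.

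Perp had 157 and 158 CPM in the 4T1 Gpr56 libraries and 99.3 and 92.1 CPM in the empty ones, a log2 fold change of 0.72 (SE 0.06, adjusted p = 1.15e-06 by edgeR). Of 12 other p53 targets tested in 4T1, 1 rose and 1 fell: Cdkn1a, the cell cycle inhibitor p21, had a log2 fold change of 0.68 (SE 0.10), and Sesn2, a stress response gene, one of -0.65 (SE 0.16). Over all genes 22.8% were called, and in the fit of all 8 libraries none of these targets passed, with a lowest adjusted p of 0.15 by edgeR.

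**Figure D2:**
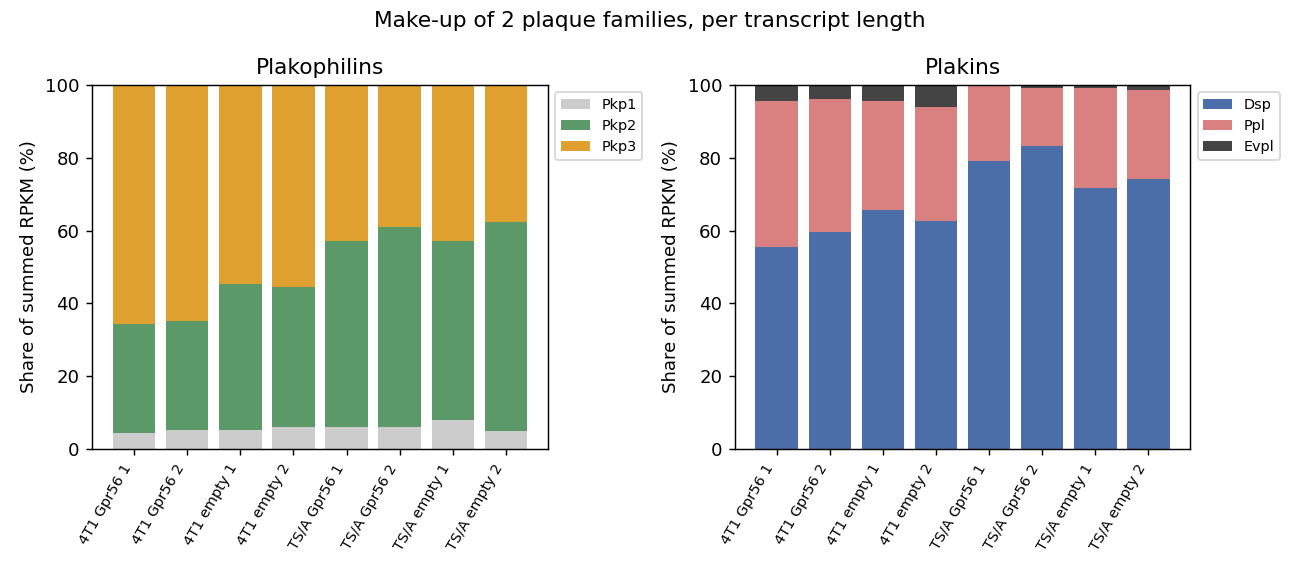
Share of the summed RPKM (percent, stacked to 100) that each plakophilin (left) and each plakin (right) takes in each of the 8 libraries. Pkp3 takes 65.7% and 64.8% in 4T1 Gpr56 against 54.7% and 55.3% in 4T1 empty, and in TS/A Pkp2 is the larger of that pair.

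Transcripts could be told apart for some of the 10. Jup has a pair of annotated protein-coding transcripts with the same coding sequence, Jup-201 with 14 exons and Jup-202 with 13, and Jup-202 lacks the last exon of Jup-201, which is 831 bases long. Jup-202 took 17.5% and 16.9% of the Jup reads in the 4T1 Gpr56 libraries (384 and 167 reads) against 5.47% and 5.80% in the 4T1 empty libraries (46 and 63 reads). The libraries of each group lay close together and far from the other group. In a test of transcripts added after the data were seen, Jup-202 had a log2 fold change of 2.60 (SE 0.24) and Jup-201 one of 0.81 (SE 0.09), with adjusted p of 0.195 and 0.215 by edgeR. None of the 24822 transcripts passed, while 3064 had an unadjusted p under 0.05, so neither is called. Dsp-202, whose coding sequence is 1797 bases shorter than that of Dsp-201, took 10.3% and 7.29% of Dsp reads with Gpr56 and 9.87% and 8.91% with the empty vector in 4T1. Ppl, Evpl, Perp and Pkp2 each had 1 transcript listed.

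Promoter sequence was at hand for 2 of the 10 genes, Dsp and Jup, and is shown because both rose in 4T1 and differ in their level in TS/A, where Dsp was kept and Jup was near 0. The windows run from 250 bases before to 50 bases after the start, from RefSeq on GRCm38.p6, 5′ to 3′ on the gene's strand. Capitals mark GGGCGG or its reverse complement, the core of the box bound by Sp1 and KLF factors, and in Dsp also CAGGTG, an E-box of the kind that Snail and Zeb factors bind.
Dsp, chr13:38151044-38151343, plus strand: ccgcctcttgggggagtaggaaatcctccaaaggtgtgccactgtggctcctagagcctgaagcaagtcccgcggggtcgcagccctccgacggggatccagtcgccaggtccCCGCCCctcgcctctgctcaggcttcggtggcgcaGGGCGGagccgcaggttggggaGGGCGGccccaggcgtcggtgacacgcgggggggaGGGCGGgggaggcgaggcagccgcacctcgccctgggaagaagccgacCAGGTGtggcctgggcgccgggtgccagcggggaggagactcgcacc
Jup, chr11:100397741-100398040, minus strand: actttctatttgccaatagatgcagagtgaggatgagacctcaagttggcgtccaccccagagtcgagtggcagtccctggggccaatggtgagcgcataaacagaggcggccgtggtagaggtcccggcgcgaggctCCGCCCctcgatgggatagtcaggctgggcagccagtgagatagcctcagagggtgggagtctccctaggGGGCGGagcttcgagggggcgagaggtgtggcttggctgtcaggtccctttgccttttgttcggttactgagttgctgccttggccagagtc

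On both strands, GGGCGG was found 4 times in the Dsp window and at positions -112 and -42 from the start in that of Jup, and it was found in 35.7% of the 32851 promoter windows of the table. CAGGTG was found at position 3 after the Dsp start and not in the Jup window, and is held by 20.2% of windows. Neither window held the GRHL motif AACNGGTT (2.09% of windows), the AP-1 motif TGANTCA (7.81%), the p53 family motifs GGACATG or GGGCATG (6.65%) or the TATA box letters TATAAA (13.6%). GC content was 73% in the Dsp window and 60.7% in the Jup window. No motif searched overlapped another in these matches.

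Genes around the desmosome were read in the same fit of 4T1, as lists chosen with earlier results known, which get no test. In the fit of all 8 libraries no gene of any of these lists passed for the 4T1 vector effect. In the fit of 4T1 alone, 11.5% of all genes tested were called higher and 22.8% in either direction. Among 13 keratins and hemidesmosome linkers tested, 9 rose and none fell: Krt16 had a log2 fold change of 1.57 (SE 0.20) and Krt19 one of 1.01 (SE 0.07). Among 8 adherens junction genes 6 rose and 1 fell, with log2 fold changes of 0.60 (SE 0.06) for Cdh1 and 0.50 (SE 0.13) for Nectin1, which encodes a cell adhesion molecule, and of -0.17 (SE 0.05) for the nectin-binding Afdn. Among 15 transcription factors linked to these genes 7 rose and 2 fell. Grhl3, a grainyhead factor of epidermal barrier formation, had a log2 fold change of 1.70 (SE 0.51) at 29 and 14 reads with Gpr56 and 6 and 10 reads with the empty vector. Ehf, an epithelial ETS factor, had one of 1.30 (SE 0.12). Twist1 and Zeb2, which are known to repress epithelial genes, had -0.90 (SE 0.17) and -0.68 (SE 0.10).

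Most other genes of the junction and the envelope had too few reads in 4T1 to be tested. Calls among the rest are to be read against 11.5% of all genes called higher and 22.8% in either direction. Of 11 other genes, listed as desmosomal cadherins, plaque genes and p120 catenin with its relative Arvcf, 4 had enough reads to be tested and 1 rose. It was Ctnnd1, which encodes p120 catenin, with a log2 fold change of 0.31 (SE 0.05). Of 40 genes of cornified envelope precursors and enzymes, 5 were tested and 1 rose: Tgm1, the transglutaminase that cross-links the envelope, had 7.25 and 9.19 CPM with Gpr56 and 2.53 and 2.26 CPM with the empty vector, a log2 change of 1.76 (SE 0.23, adjusted p = 7.43e-05 by edgeR). The envelope proteins loricrin (Lor) and involucrin (Ivl) had 0 reads in 4T1 but for 1 Ivl read in a Gpr56 library. Of 7 genes of desmosome turnover, 1 rose and 2 fell: Zdhhc5, a palmitoyl transferase, had 0.31 (SE 0.06), Flot2, a flotillin, -0.30 (SE 0.06) and Prkca, a protein kinase C, -0.29 (SE 0.07). Median log2 fold changes were 0.37 for the keratins and linkers, 0.28 for the adherens junction genes and 0.52 for the transcription factors. The median over all genes was -0.00. Medians were 0.00 for the other plaque and p120 genes, 0.08 for the envelope genes, -0.07 for the p53 targets and -0.05 for turnover. Of the marker sums in 4T1, the epithelial and immune ones were higher with Gpr56 and the fibroblast one was lower. The 9 fibroblast markers, nearly all of it Vim, summed to 1609 and 1495 CPM with Gpr56 and 2280 and 2372 CPM with the empty vector. The 8 immune markers summed to 13.8 and 17.8 CPM with Gpr56 and 7.09 and 6.67 CPM with the empty vector, almost wholly Cd68, with Ptprc (CD45) at 0 to 3 reads. The 5 endothelial markers summed to under 1 CPM in every library, and 5 markers of mature keratinocytes to 2.53 and 2.62 CPM with Gpr56 and 2.08 and 3.38 CPM with the empty vector. Their part in the results was not tested.

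In TS/A no vector effect on these genes passed the test. Of the 10 genes, 6 had enough reads to be tested, and Dsg2, Dsc2, Jup and Evpl did not. None of the 11276 genes tested, 0% of them, was called by edgeR, 115 had an unadjusted p under 0.05, and DESeq2 called 3 and limma-voom none. Pkp2 and Pkp3 had log2 fold changes close to 0, at 0.09 (SE 0.17) and 0.03 (SE 0.26). Ppl, Perp and Dsp had negative ones, at -1.11 (SE 0.46), -0.84 (SE 0.44) and -0.42 (SE 0.36), and Pkp1 was at -0.07 (SE 0.33), all with an adjusted p of 1 by edgeR. The median of the 6 was -0.25, against -0.02 over all genes.

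Single libraries decided some of these values. Ppl had 6.78 and 4.29 CPM in the TS/A libraries labelled Gpr56 and 16.9 and 7.0 CPM in those labelled empty. The groups did not overlap, but empty library 1 was more than 2 times as high as empty library 2. Dsp had 40.1 and 32.9 CPM with the Gpr56 label and 67.1 and 31.0 CPM with the empty label, so the groups overlapped. Without TS/A empty library 2, which leaves 1 empty library, the log2 fold change of Dsp was -0.85 and that of Ppl -1.58. Without empty library 1, the log2 fold change of Dsp was 0.23 and that of Pkp1 0.45. Perp, at 19 and 11 reads with the Gpr56 label and 28 and 20 with the empty label, did not overlap between the groups. Pkp2, at 35.5 and 36.8 CPM with the Gpr56 label and 34.2 and 33.7 CPM with the empty label, was the steadiest of the 10 in TS/A. Groups did not overlap for 3 of the 6, against 21.7% of all genes tested. No gene of the surrounding lists was called in TS/A.

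**Figure D3:**
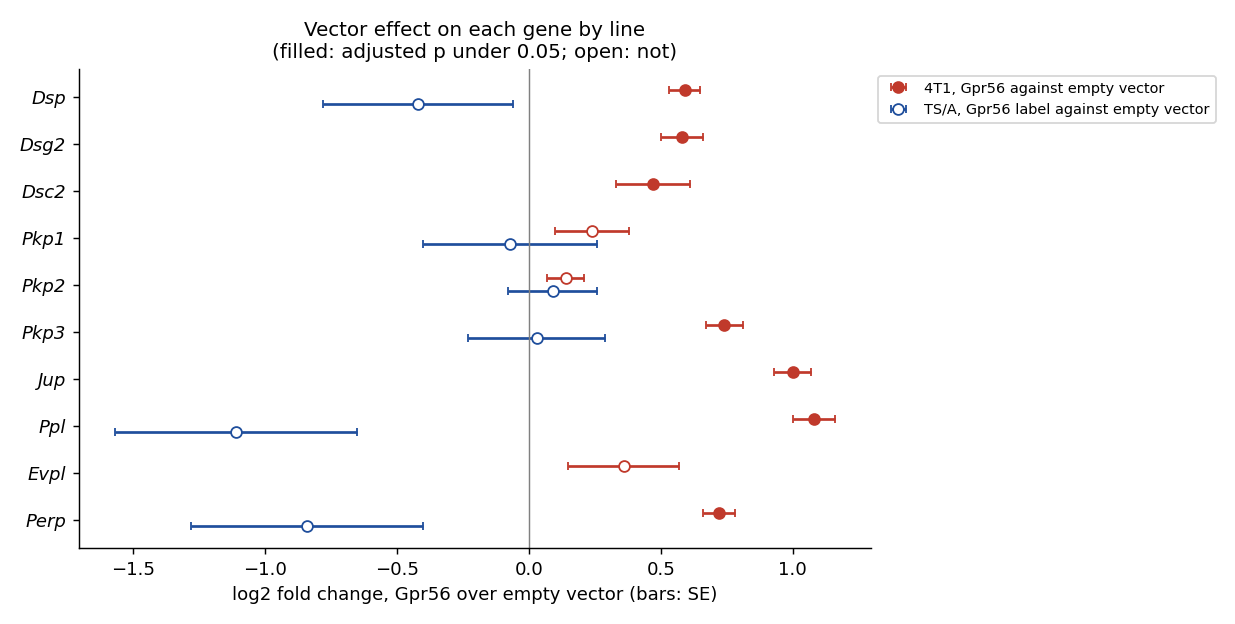
Log2 fold change of the Gpr56 over the empty vector (horizontal axis, bars are 1 SE) for each gene, in 4T1 (red) and TS/A (blue), each line fitted alone; filled points have an adjusted p under 0.05. The 4T1 points lie between 0.14 and 1.08, and the 6 genes tested in TS/A lie between -1.11 and 0.09 with none filled.

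The difference between those vector effects, TS/A minus 4T1, was tested in 1 fit of all 8 libraries. None of the 10 genes passed, and 8 of 11970 genes did (0.0668%; 766 had an unadjusted p under 0.05). Dsg2, Dsc2, Jup and Evpl had too few reads in TS/A to be tested there and entered this fit only through 4T1. Their differences are not read, and Dsc2, at 0 reads in TS/A, could not have passed (SE 806.58). Of the others, Ppl, Perp, Dsp and Pkp3 had an unadjusted p under 0.05. The log2 differences were -2.19 (SE 0.51, adjusted p = 0.374 by edgeR) for Ppl, -1.55 (SE 0.27, adjusted p = 0.214 by edgeR) for Perp, -1.02 (SE 0.42) for Dsp and -0.71 (SE 0.29) for Pkp3. DESeq2 called Ppl and Perp, with adjusted p of 0.00601 and 0.0211. Over 16 alternatives, the log2 difference ran from -2.67 to -1.39 for Ppl and from -1.84 to -1.33 for Perp. It ran from -1.46 to -0.35 for Dsp and from -0.95 to -0.40 for Pkp3. It is therefore not shown by the main test that the lines differ in their vector effect on these genes, and the TS/A side rests on libraries whose Adgrg1 level does not follow the labels.

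Between the lines, Perp differed far more than between the vectors in 4T1, at a log2 difference of -6.41 (SE 0.17) against 0.72 (SE 0.06). For Ppl the sizes were closer, at -1.31 (SE 0.36) between the lines against 1.08 (SE 0.08) between the vectors. With the empty vector, the 6 of the 10 genes that had enough reads to be tested in TS/A were each lower there than in 4T1 by the adjusted p, and 23.5% of 11970 genes were called lower and 47.4% called in either direction. The 10 lay in 3 ranges in TS/A: plakophilins 1, 2 and 3, desmoplakin and periplakin were kept at a lower level, envoplakin, plakoglobin and Perp were at 1.15 CPM or less in each TS/A library, and desmoglein 2 and desmocollin 2 had at most 1 read per library. Dsg2, Dsc2, Jup and Evpl passed the filter on low counts only through 4T1 and so had to differ, and their levels are given with no test. The test was the same edgeR fit of all 8 libraries. It shares the 4T1 empty libraries with the 4T1 vector effect and the TS/A empty libraries with the TS/A one. In bulk RNA, fewer cells that express a gene and less of its RNA per cell cannot be told apart.

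The desmosomal cadherins were at or near 0 in TS/A. Dsc2 had 0 reads in each of the 4 TS/A libraries, against 181 and 189 reads in the 4T1 empty libraries, and was at least 136-fold lower in TS/A empty (taking 3 reads over the group as the limit that a count of 0 allows). Dsg2 had 1 and 0 reads in the TS/A empty libraries and 658 and 778 reads in the 4T1 empty libraries. The 4T1 level was 1579 times the TS/A level, with a 95% interval of 283 to 62418 that covers counting error only. None of the other desmogleins and desmocollins was above 2 reads in a TS/A library.

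These genes lie in 1 cluster on chromosome 18 (GRCm38), with Dsc2 from 20030633 to 20059554 on the minus strand and Dsg2 from 20558074 to 20604521 on the plus strand, and its neighbours were looked at after the values of both were seen. On one side, Cdh2, which encodes N-cadherin, had 3056 and 1724 reads in the TS/A empty libraries and 0 and 2 reads in the 4T1 empty ones. On the other, B4galt6, a glycolipid galactosyltransferase, had 0 reads in each TS/A library against 224 and 244 in 4T1 empty, at least 172-fold lower. The next gene, Trappc8, was higher in TS/A, with 80.0 and 78.9 CPM in TS/A empty against 50.3 and 52.7 CPM in 4T1 empty (log2 difference 0.62, SE 0.11, adjusted p = 0.0028 by edgeR). Rnf125 and Rnf138 beyond it were higher too, with log2 differences of 1.49 (SE 0.28) and 0.76 (SE 0.27). Between Cdh2 and Trappc8, each of the genes from Dsc3 to B4galt6, Ttr among them, had 2 reads or fewer in every TS/A library. In 4T1, too, most of that stretch was at 0, and Dsc2, Dsg2 and B4galt6 were the ones above 8 reads in a library. Mep1b, beyond Rnf138, had 0 reads in both lines. Of 9064 genes with at least 500 reads over the 4 4T1 libraries, 23 (0.254%) had 0 reads over the TS/A libraries and 51 (0.563%) had 2 or fewer.

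**Figure D4:**
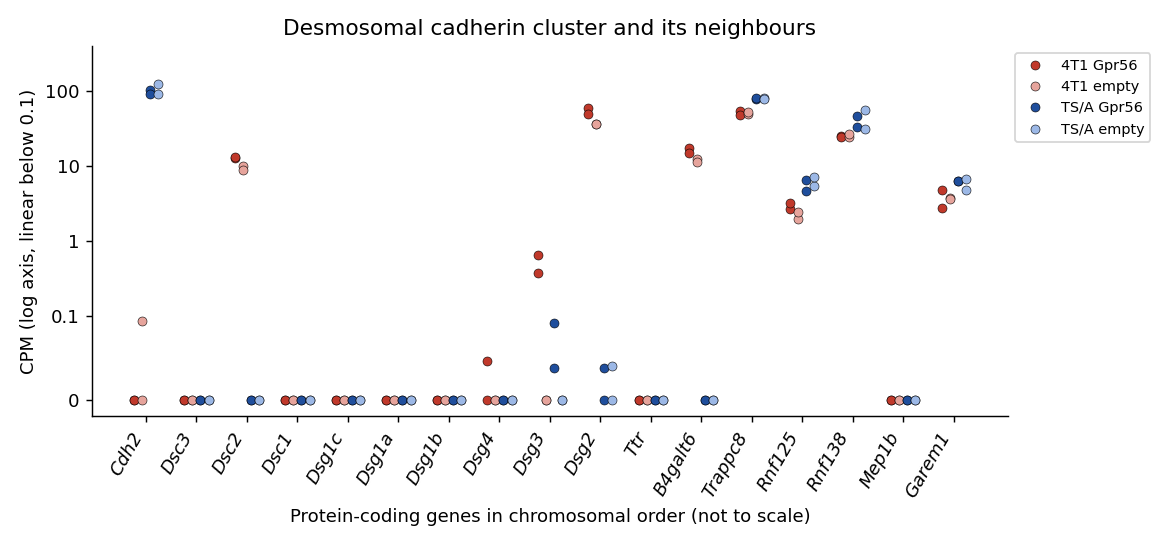
TMM-scaled CPM (log axis, linear below 0.1) of the protein-coding genes from Cdh2 to Garem1 in chromosomal order, with each of the 8 libraries as a point coloured by group. Dsc2, Dsg2 and B4galt6 are high in the 4T1 libraries and at 0 to 1 read in the TS/A libraries, Cdh2 is the reverse, and Trappc8 is expressed in both lines.

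Plakoglobin and Perp had a trace left in TS/A. Jup averaged 0.571 ± 0.351 CPM in TS/A empty, from 20 and 6 reads, and 49.2 ± 2.62 CPM in 4T1 empty (SD, n = 2 each). Perp averaged 1.11 ± 0.0503 CPM in TS/A empty and 95.7 ± 5.09 CPM in 4T1 empty (SD, n = 2 each; log2 difference -6.41, SE 0.17, adjusted p = 3.39e-07 by edgeR). Perp, which had the highest RPKM of the 10 in 4T1, was the sixth in TS/A. Evpl had 13 and 7 reads in TS/A empty and 81 and 133 reads in 4T1 empty.

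The plakophilins and 2 plakins were kept at lower levels. Pkp2 differed least, at 33.9 ± 0.382 CPM in TS/A empty and 50.7 ± 0.152 CPM in 4T1 empty (SD, n = 2 each; log2 difference -0.58, SE 0.12, adjusted p = 0.00419 by edgeR). Pkp3 had a log2 difference of -1.57 (SE 0.21, adjusted p = 0.00056 by edgeR). Ppl had -1.31 (SE 0.36, adjusted p = 0.0169 by edgeR), Dsp -0.95 (SE 0.30, adjusted p = 0.0308 by edgeR) and Pkp1 -0.76 (SE 0.27, adjusted p = 0.0473 by edgeR). These 3 calls depended on the setting: that of Ppl was lost in 3 of 18 alternatives, that of Dsp in 8 and that of Pkp1 in 11. Between the Gpr56 libraries of both lines the differences were wider, at -3.50 (SE 0.39) for Ppl, -2.28 (SE 0.21) for Pkp3, -1.97 (SE 0.31) for Dsp and -1.08 (SE 0.27) for Pkp1, and that of Pkp2 was -0.62 (SE 0.12). Ppl averaged 5.53 ± 1.76 CPM in TS/A Gpr56 and 63.1 ± 4.54 CPM in 4T1 Gpr56 (SD, n = 2 each). With the empty vector, each of the 3 was higher in TS/A empty library 1 than in library 2, with Dsp at 67.1 and 31.0 CPM, Ppl at 16.9 and 7.0 CPM and Pkp1 at 8.77 and 4.68 CPM. Dsp-202 took 6.96% and 20% of the Dsp reads in TS/A empty and 3.13% and 17.6% in TS/A Gpr56, so its share also differed more between libraries of a group than between groups.

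Ranked per length, the order of the 10 was not the same in the 2 lines. In 4T1 Gpr56, Perp led with 76.8 RPKM, followed by Pkp3 (39.3), Jup (30.8), Pkp2 (18.1), Dsp (14.5), Ppl (9.69), Dsg2 (9.11), Dsc2 (3.01), Pkp1 (2.80) and Evpl (1.03), as means of 2 libraries. The libraries of Ppl and Dsg2 overlapped, as did those of Dsc2 and Pkp1. In 4T1 empty, Perp (45.7 RPKM) and Pkp3 (22.6) were again first, but Pkp2 (16.2) lay above Jup (14.6) and Dsg2 (5.95) above Ppl (4.50), in both libraries, and Pkp1 and Dsc2 overlapped. In TS/A Gpr56 the order ran from Pkp2 (11.8 RPKM) through Pkp3 (9.12), Dsp (3.71), Pkp1 (1.33), Ppl (0.849), Perp (0.301) and Jup (0.103) to Evpl (0.0256). In TS/A empty, Pkp2 (11.1 RPKM) was first, Pkp3 (8.49) and Dsp (5.08) overlapped, as did Ppl (1.87) and Pkp1 (1.39), and Perp (0.543), Jup (0.180) and Evpl (0.0684) followed.

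The lists around the desmosome held calls both ways between the lines, to be read against the 47.4% of all genes called. Some of their genes were tested only through 1 line and so had to differ, and the counts include them. In TS/A alone, 11 of the 13 keratins and linkers, 8 of the 9 adherens junction genes, 12 of the 18 transcription factors and 3 of the 5 envelope genes had enough reads. In 4T1 alone, 8 of the 9 adherens junction genes, 15 of the 18 transcription factors and 12 of the 13 p53 targets did. Krt7, Cdh1, Esrp1 and Tgm1 had too few in TS/A, and Cdh2, Snai2 and Pmaip1 too few in 4T1. Of 13 keratins and linkers tested, 6 were lower in TS/A and none higher, and the most marked was Krt7, a keratin of simple epithelia, at 10 and 1 reads in TS/A empty and 9832 and 11531 reads in 4T1 empty. Of 9 adherens junction genes, 6 were lower and 2 higher. Cdh1 had 4 and 0 reads in TS/A empty and 5031 and 5688 in 4T1 empty, and Cdh2 was among the higher ones. Of 18 transcription factors, 10 were lower and 5 higher: Esrp1, an epithelial splicing regulator listed with them, had 0 reads in both TS/A empty libraries and 679 and 838 in 4T1 empty, while Snai2, which encodes Slug, had 37 and 51 reads in TS/A empty and 0 in 4T1 empty. Of 4 other plaque and p120 genes 2 were lower, Arvcf, a p120 relative, by a log2 difference of -0.59 (SE 0.20). Of 5 envelope genes 3 were lower and 1 higher, Tgm1 having 0 reads in both TS/A empty libraries and 45 and 48 in 4T1 empty, and the protease inhibitor Cstb a log2 difference of 1.01 (SE 0.16).

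Among other p53 targets, of 13 tested, 6 were higher in TS/A and 1 lower, against 47.4% of all genes called in either direction. Pmaip1, which encodes the cell death protein Noxa, had 77 and 54 reads in TS/A empty and 0 in both 4T1 empty libraries, and so had to differ. Zmat3, an RNA-binding target of p53, had a log2 difference of -0.54 (SE 0.16). Of 7 genes of desmosome turnover, 5 were higher and none lower, led by Flot1, a flotillin, at 2.36 (SE 0.16).

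Among the genes whose pattern over the 8 libraries was most like the mean of the 10, of 11960 others ranked by Pearson's r of log2 CPM, were Serpinb5 (r = 0.9988), Fbxo2 (0.9984) and Ajuba (0.9984). The 8 points form 2 clusters, 1 per line, so these values mostly describe the difference between the lines. Serpinb5, which encodes the serpin maspin, had 21.1 and 17.3 CPM in 4T1 Gpr56 against 7.20 and 9.54 CPM in 4T1 empty. In TS/A it had 0 and 0 CPM with the Gpr56 label and 0.0820 and 0 CPM with the empty label.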

How the data were processed

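RNA was isolated on RNeasy Mini columns and made into TruSeq RNA v2 libraries, per the labels' protocols. That kit does not mark strand, so reads of Dsp, Dsg2 and Pkp1 cannot be told from those of annotated genes that overlap them. Each deposited file lists 65042 transcripts with RPKM and a whole-number read count, headed total gene reads, per the file headers. Aligner, counter, build and annotation: not given in the sources used here. So how reads shared between transcripts were assigned is unknown, and transcript shares depend on it. The counts were summed to 22026 genes by the name column, and the authors' RPKM likewise. Coordinates and transcript structures are those of GENCODE M21 (GRCm38), which holds 65023 of the transcripts.

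Groups were taken from the vector in the characteristics. Tests used edgeR 4.0.16 in R 4.3.3 with filterByExpr, TMM, the quasi-likelihood test and Benjamini-Hochberg adjustment over all genes tested at a threshold of 0.05. Each vector effect was fitted on the 4 libraries of its line, and the difference between vector effects and that between the lines on all 8. The biological coefficient of variation was 5.47% in 4T1, 19.6% in TS/A and 14.7% over all 8, and with 2 libraries a group these set the precision. SE is the log2 fold change over the square root of the F value. DESeq2 1.42.0, limma-voom (limma 3.58.1), other scalings and filters, a replicate block and leaving out each library were alternatives. The transcript tests, the neighbours on the chromosome and Dsg3 were added after the data were seen. Genes named besides the 10 were, per list, up to 2 of the largest increases and decreases called in 4T1 and the largest each way between the lines. For likeness to the mean of the 10, the 5 genes with the highest r were taken, and some of them are not reported here. The members and lists were chosen with earlier results of these data known. The procedure was tested on simulated data.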

Additional observations from a re-analysis of the deposited data

Results flagged for a closer look

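The vector effect on Adgrg1, the gene the vector carries, differed between the lines by a log2 value of -5.67 (TS/A minus 4T1; adjusted p = 0.0204 by edgeR in the fit of all 8 libraries), and this test of the difference is why it is listed. The value stayed between -6.11 and -5.00 in 16 alternatives, but the call was lost in 7 of them: with limma-voom, without each of the 4 libraries of 4T1 in turn and without each TS/A Gpr56 library. In 4T1 the Gpr56 libraries were above both empty-vector libraries, and in TS/A the groups overlapped. The comparisons of the 10 genes between vectors in TS/A rest on these labels.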

How the results depend on the processing

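For the 4T1 vector effect, DESeq2 called 1549 genes and the fit of all 8 libraries 27, with 0 of the 10, and leaving out 1 library gave 1403 (without 4T1 empty library 2; 1596 without empty library 1) to 2748 genes and 6 to 7 of the 10. Library totals without TMM factors gave 1624 higher and 1042 lower calls in 4T1 (60.9% higher, against 50.5%). For TS/A, DESeq2 called 3 genes, no filter 4 and the fit of all 8 libraries 1, and leaving out 1 library gave 4 to 1140 (without TS/A empty library 2) genes and 0 to 2 of the 10. For the difference of vector effects, DESeq2 called 65 genes and 2 of the 10, no filter 60 and 2, library totals 4 and limma-voom 0, and leaving out 1 library gave 0 to 2391 (without TS/A empty library 2) genes and 0 to 5 of the 10. For the line difference, the 4 empty-vector libraries alone gave 3713 genes, and leaving out 1 library 3335 (without 4T1 empty library 1; 3349 without empty library 2) to 7853 genes and 7 to 10 of the 10. Replicate numbers were not shown to pair the libraries: deviations of same-numbered libraries correlated at -0.02 in 4T1 and 0.31 in TS/A over 11970 genes. With the replicate block, 2824 genes and 7 of the 10 were called in 4T1, 26 and 1 in TS/A (Ppl, adjusted p = 0.0483 by edgeR), 37 and 1 in the difference (Ppl, 0.0108) and 4755 and 9 between the lines. All counts of the 10 between the lines take in Dsg2, Dsc2, Jup and Evpl, which passed the filter only through 4T1 and so had to differ. In the difference of vector effects these genes entered only through 4T1 too. Directions that reversed, none of them called in either fit but the last, were those of Dsp (0.23), Pkp1 (0.45) and Adgrg1 (0.14) in TS/A without empty library 1, Pkp3 in TS/A without Gpr56 library 1 (-0.19) and without empty library 2 (-0.20), the differences for Dsg2 (1.53) and Pkp1 (0.22) without TS/A empty library 1, for Dsg2 (0.02) without TS/A Gpr56 library 2 and for Pkp2 (0.05) without 4T1 Gpr56 library 1, and Adgrg1 between the lines with the Gpr56-vector libraries (-2.40). Leaving out 1 library moved Dsp in TS/A between -0.85 and 0.23, Pkp1 between -0.42 and 0.45, Pkp3 between -0.20 and 0.33 and Adgrg1 between -0.93 and 0.14, and the differences between -2.77 and 1.53 for Dsg2, -0.69 and 0.22 for Pkp1 and -0.11 and 0.05 for Pkp2. The causes were not tested. For a count of 0 over the TS/A empty libraries, levels of up to 3 reads, or 0.0698 CPM, cannot be told from 0.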
